A study of Mus musculus with 6 samples.

Results

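Mucins and serous gland products make up the wet layer of the nasal lining, and 10 genes of this kind were followed among the 31319 genes counted. They are the gel-forming mucin genes Muc5b, Muc5ac and Muc2, the membrane mucin genes Muc1, Muc4 and Muc16, the water channel gene Aqp5, the secreted defence protein genes Ltf and Dmbt1, and the transcription factor gene Sox9. The members were taken by gene name, and each name matched 1 row of raw counts. RNA came from the main olfactory epithelium of male C57BL/6 mice aged 5 months. The miR-200b/a knockdown group (KD) had 3 libraries, as had the group called NC, the controls. How the microRNAs were lowered, in which cells, and what the NC mice received were not given in the sources used here. Separate mice per library are not stated either, and p-values then measure only the spread between libraries, which may be technical. Values of a group are listed in the order of its libraries, 1 to 3.

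Gel-forming mucins are secreted, linked into polymers and swollen with water into the mucus sheet, whereas membrane mucins stay anchored to the cell and form the brush on which the mucus rides. In the olfactory lining, mucus over the sensory cilia comes largely from Bowman's glands, whose cells release glycoproteins and defence proteins and move water through aquaporins. Sox9 is a transcription factor of gland and duct cells and also of cartilage. Lactoferrin, the product of Ltf, binds iron and is made both by serous gland cells and by neutrophils.

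The 2 microRNAs lowered in the KD mice are shown because their seeds define what they can pair with. Both are printed from RefSeq (GRCm38.p6), 5′ to 3′, with the seed, bases 2 to 8, in capitals.
miR-200b-3p (chr4:156055685-156055706, minus strand): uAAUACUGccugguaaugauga
miR-200a-3p (chr4:156054911-156054932, minus strand): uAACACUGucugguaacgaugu
The letters that pair with these seeds, CAGTATT and CAGTGTT, were searched in the longest annotated 3′ UTR of each member. None of the 10 UTRs, which run from 63 bases in Muc16 to 2250 in Sox9, held either one. Of 21151 genes with an annotated 3′ UTR, 13.9% held CAGTATT and 18% held CAGTGTT. Most of the members' UTRs are short: among genes with a UTR of like length, the share with CAGTATT was 3.81% for Muc5b, 2.89% for Muc1 and 21.6% for Sox9. The same search found 5 and 4 matches in Zeb2, a textbook target of the family. No match says only that these letters are not in these windows.

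Depth was 15704791 to 17618540 counts per library. The targeted loci were looked at first. Mir200a had 54, 3 and 52 counts with knockdown and 200, 87 and 84 in controls, and Mir200b had 10, 0 and 28 against 76, 54 and 47. Counts at these loci in poly(A) RNA do not measure the mature microRNAs. Besides, 2 libraries were looked at separately. KD-2 held almost no RNA of mature olfactory neurons, with 149 counts of Omp, their marker, against 24302 to 69388 elsewhere. NC-1 was lowest in neutrophil genes, with a summed level over 12 neutrophil genes of 81.5 CPM (TMM-normalised counts per 1e+06) where the other controls had 287 and 2322 CPM. This level does not single out NC-1, since NC-3 was far above NC-2. NC-1 was also the lowest library for Muc5b, Muc5ac, Muc1, Muc4, Aqp5 and Ltf, and leaving it out lowers their fold changes. The members' fold changes and the medians of the gene lists below are given with and without these libraries.

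Of the 10 members, 7 had a fitted log2 fold change above 0 in KD and 3 below, and 0 had an adjusted p under 0.05 (Benjamini-Hochberg) in the quasi-likelihood test of edgeR, where 0% of all tested genes passed. At an unadjusted p under 0.05, 3 members were higher and 0 lower, against 8.7% and 9.25% of all tested genes. DESeq2 called 1 member higher and 0 lower, against 0.821% and 1.07% of genes. In 6 members the 3 KD values lay above the 3 NC values, which 15.3% of tested genes did, and in 1 they lay below, as in 18.6% of genes. Without KD-2 and NC-1 the groups were apart in the same way for 7 members upward (20.4% of genes) and for 1 downward (24% of genes). Sox9 joined those upward, at 44.6 and 41.4 CPM (KD-1, KD-3) against 40.9 and 36.3 CPM (NC-2, NC-3). The members' log2 fold changes ran from -1.14 for Muc2 to 1.88 for Ltf, with a median of 0.98, against 0.01 over all 18444 tested genes.

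**Figure D1:**
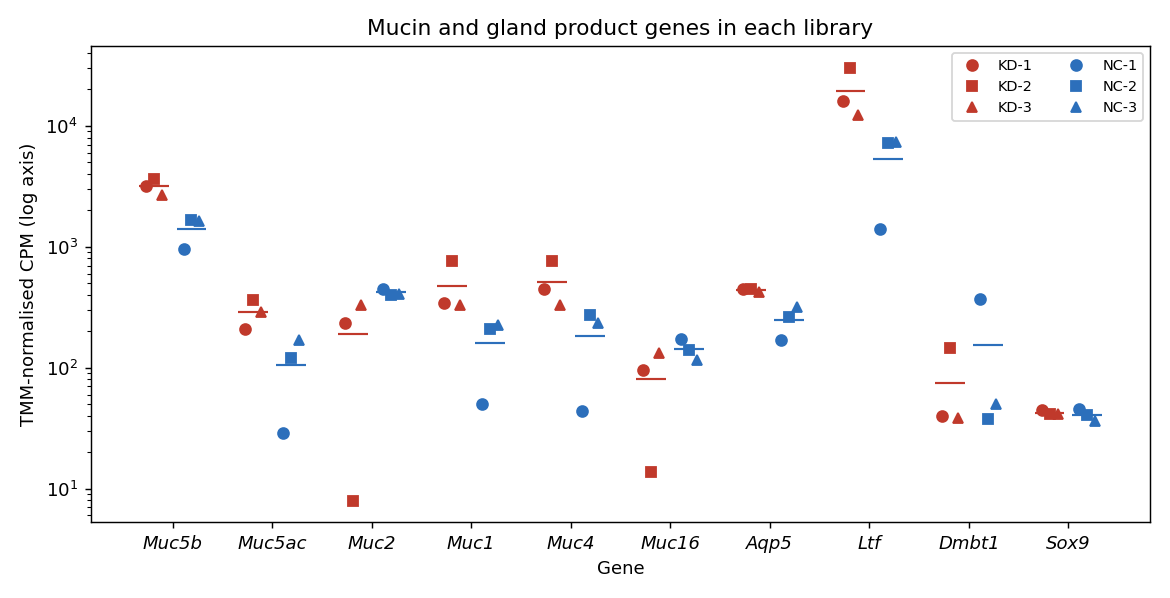
TMM-normalised CPM (log axis) of each member in each library, red for KD and blue for NC, the line marking the mean of the 3 values. KD-2 lies far below the rest for Muc2 and Muc16 at 7.97 and 13.8 CPM, and NC-1 is lowest for Muc5b, Muc5ac, Muc1, Muc4, Aqp5 and Ltf.

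Muc5b, the dominant gel-forming mucin of airway glands (ENSMUSG00000066108, chromosome 7, 141839070 to 141873084, plus strand), was the member with the most regular difference. It stood at 3208, 3613 and 2658 CPM with knockdown and at 950.5, 1668 and 1625 CPM in controls. All KD libraries lay above all NC libraries, and the lowest KD value was well above the highest NC value. Group means were 3159.6 ± 479 against 1414 ± 402 CPM (SD, n = 3 each). The fitted log2 fold change was 1.16 (SE 0.346, 95% interval 0.32 to 2.00). Its adjusted p by edgeR was 0.276, the smallest of all tested genes and shared by many of them. DESeq2 called it (log2 fold change 1.14, adjusted p = 0.0174). Without KD-2 and NC-1 the fold change was 0.86. In the authors' deposited table Muc5b has a log2 fold change of 1.14 and an unadjusted p of 0.000232.

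Muc5ac, the gel-forming mucin of surface goblet cells (chromosome 7, 141788972 to 141819231), lies next to Muc5b and was present at a lower level. Its values were 209, 360.1 and 289.7 CPM with knockdown and 28.7, 120.0 and 168.0 CPM in controls. The groups did not overlap, but NC-1 was far below the other two controls. The log2 fold change of 1.44 (SE 0.617, 95% interval -0.06 to 2.93) had an adjusted p of 0.281 by edgeR, and it was 0.81 without KD-2 and NC-1. Muc5b had 9.18 to 33.1 counts for each Muc5ac count, the highest ratio in NC-1, and this ratio overlapped between groups.

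Muc2, best known as the gel-former of intestinal goblet cells (chromosome 7, 141690340 to 141754693), went the other way. It stood at 236, 7.97 and 329 CPM with knockdown and at 447, 402 and 409.7 CPM in controls. The 3 controls were close together and all KD libraries lay below them, with KD-2 lower than any other library by more than an order of magnitude. Its log2 fold change was -1.14 (SE 1.06, 95% interval -3.70 to 1.43, adjusted p = 0.522 by edgeR) and -0.55 without KD-2, or -0.50 without KD-2 and NC-1. GENCODE tags the Muc2 locus as fragmented, so its length and counts are uncertain.

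These 3 genes lie on the same strand of one cluster on chromosome 7, behind Muc6 and before Tollip. Muc6, the gland mucin of the stomach (141633456 to 141655319), was near the limit of counting, with 9, 17 and 26 counts in KD and 16, 12 and 16 in NC. Tollip, an inhibitor of toll-like receptor signalling (141874813 to 141918507), stood at 180.8, 116 and 179.8 CPM in KD and 401, 224 and 209 CPM in NC (log2 fold change -0.80, adjusted p = 0.276 by edgeR). Neighbours in the cluster thus had fold changes of either sign.

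Shares of the gel-forming mucin counts express the same differences in a measure that needs no scaling between libraries. Muc2 took 6.47% of the summed counts of Muc2, Muc5ac and Muc5b in KD-1 (95% exact interval 6.28 to 6.66), 0.200% in KD-2 (0.164 to 0.242) and 10.03% in KD-3 (9.79 to 10.3). In NC-1 to NC-3 it took 31.4% (30.8 to 31.9), 18.4% (17.99 to 18.7) and 18.6% (18.2 to 18.99). Muc5b took 87.8%, 90.8% and 81.1% with knockdown and 66.6%, 76.2% and 73.8% in controls. Neither share overlapped between groups, with or without KD-2 and NC-1. This follows from the levels above, with Muc2 lower and Muc5b and Muc5ac higher in KD, and is no separate evidence. The Muc2 and Muc5b shares are also close to complements. The intervals cover counting error only, since reads carry no molecular identifiers.

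**Figure D2:**
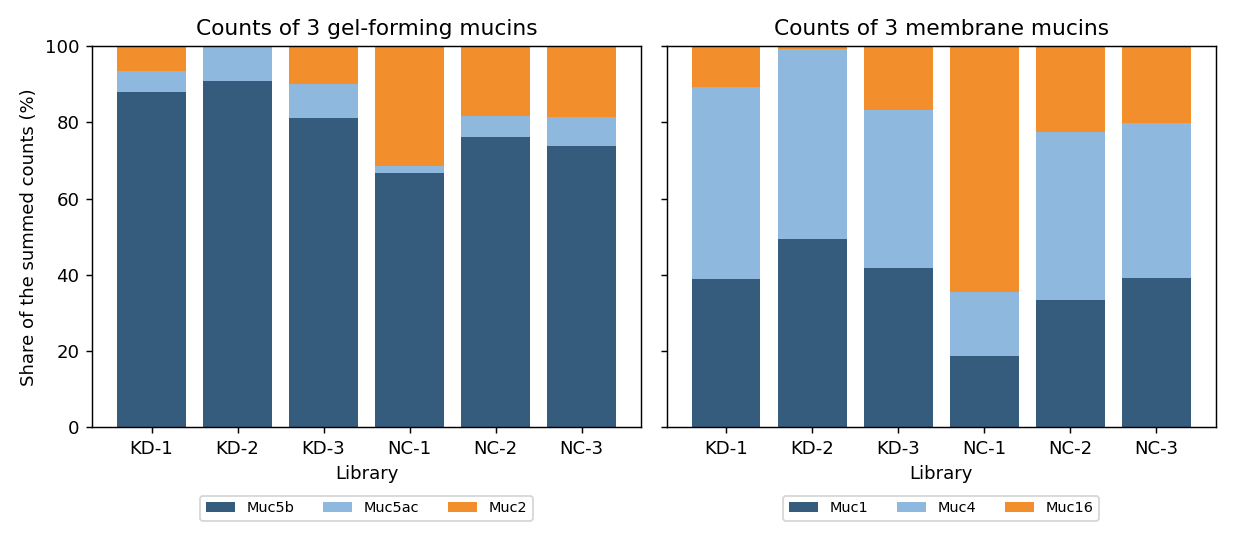
Share of summed counts taken by each of 3 gel-forming mucin genes (left) and each of 3 membrane mucin genes (right) in each library; bars start at 0. Muc2 takes 18.4% to 31.4% of the gel-forming counts in NC and at most 10.03% in KD, and Muc16 takes 64.6% of the membrane mucin counts in NC-1.

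Muc1, a membrane mucin of most glandular and surface epithelia (ENSMUSG00000042784, chromosome 3, 89229057 to 89233381), stood at 344, 757 and 332 CPM with knockdown and at 49.9, 208 and 224 CPM in controls. The groups did not overlap, KD-2 was the highest library and NC-1 the lowest. The log2 fold change was 1.57 (SE 0.633, 95% interval 0.04 to 3.11, adjusted p = 0.276 by edgeR) and 0.67 without KD-2 and NC-1.

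Muc4, a large membrane mucin of the airway surface (chromosome 16, 32735886 to 32782391), had nearly the same profile, at 444, 758 and 331 CPM in KD and 44.0, 275 and 233 CPM in NC. Again no KD library was below an NC library. Its log2 fold change was 1.47 (SE 0.690, 95% interval -0.20 to 3.15, adjusted p = 0.295 by edgeR) and 0.63 without KD-2 and NC-1. Muc1 and Muc4 stayed in step, with 0.755 to 1.13 Muc1 counts for each Muc4 count over the 6 libraries. Exons of Muc4 overlap exons of Muc20 on the opposite strand, and without the strand setting reads of the shared part cannot be told apart.

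Muc16, the very long membrane mucin of wet surfaces known as CA125 (chromosome 9, 18495455 to 18674530, minus strand), did not follow the other membrane mucins. Its levels were 96.0, 13.8 and 133 CPM with knockdown and 171, 141 and 115 CPM in controls. KD-3 lay above NC-3, so the groups overlapped, and KD-2 was again far below. The log2 fold change of -0.81 (SE 0.725, 95% interval -2.57 to 0.95, adjusted p = 0.504 by edgeR) was -0.29 without KD-2 and -0.13 without KD-2 and NC-1. As a share of the membrane mucin counts Muc16 took 10.9%, 0.902% and 16.7% with knockdown and 64.6%, 22.5% and 20.1% in controls.

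Genes listed as markers of mature neurons and of sustentacular cells are given beside Muc2 and Muc16. Cyp2g1, a cytochrome P450 gene of the sustentacular list, stood at 1544, 29.5 and 2114 CPM in KD and 3692, 2365 and 2522 CPM in NC. Whether gland cells also carry Cyp2g1 was not tested. For each Cyp2g1 count there were 0.153, 0.270 and 0.155 Muc2 counts with knockdown and 0.121, 0.170 and 0.162 in controls. This ratio overlapped between groups, although Muc2 itself differed 56.1-fold between its lowest and highest library. Muc16 had 0.062, 0.468 and 0.063 counts for each Cyp2g1 count in KD and 0.046, 0.059 and 0.046 in NC, with no overlap. Muc2 per Omp count did not overlap, at 0.166, 0.698 and 0.178 in KD and 0.104, 0.118 and 0.118 in NC. Of 12 mature neuron markers, 12 had fitted values below 0, with a summed level of 73.8 to 4532 CPM in KD and 7672 to 12283 CPM in NC. Their median log2 fold change was -1.80, or -1.20 without KD-2 and -0.99 without KD-2 and NC-1. Of 11 sustentacular markers, 7 were below 0 (median -0.69, or -0.26 without KD-2 and NC-1, summed level 7655 to 12172 against 11726 to 13053 CPM), and none of them was at 0. Krt8 and Krt18 of this list, at 0.78 and 0.60, were also counted among the gland and duct regulators given below. In KD-2 the median sustentacular marker was at -1.33 in log2 CPM relative to the NC mean, whereas Muc2 was at -5.71. Cyp2g1 fell further there than that median, so its ratio to Muc2 does not stand for the whole list. Cyp2a5, the most abundant, had 9852 counts in KD-2 and 63598 to 92635 in the remaining libraries, whereas Cbr2 had 51617 counts in KD-2 and 22787 in NC-1. The part of these cells in the values of Muc2 and Muc16 was not tested, and in bulk tissue fewer cells of a type and less RNA per cell cannot be told apart.

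**Figure D3:**
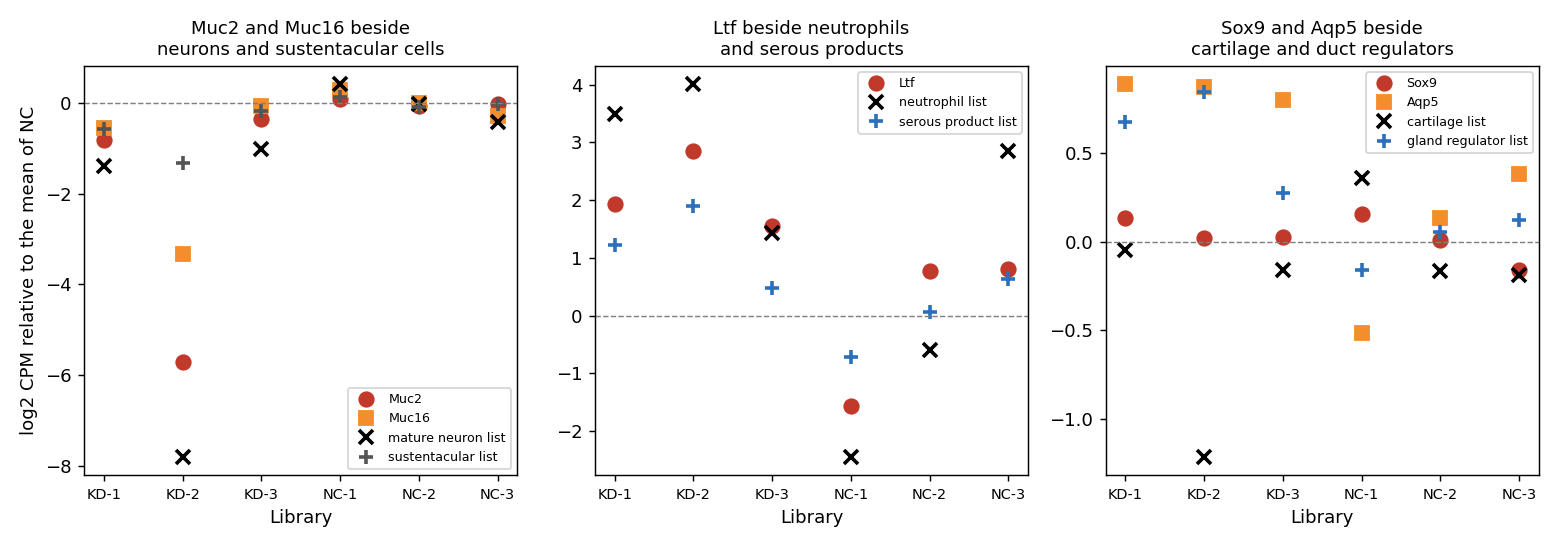
Log2 CPM relative to the mean of the NC libraries for 5 members and for the median gene of marker lists, by library. In KD-2, Muc2 is at -5.71 and Muc16 at -3.34, beside -7.81 for mature neurons and -1.33 for sustentacular markers. Ltf and the neutrophil list are both highest in KD-2 and lowest in NC-1, and they part in NC-2 and NC-3. Sox9 stays within 0.16 of 0 in each library.

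Aqp5, the apical water channel of serous gland cells (ENSMUSG00000044217, chromosome 15, 99590782 to 99594829), had the tightest KD group of the members that were higher there. It stood at 448, 443 and 421 CPM with knockdown and at 169.6, 265 and 316 CPM in controls. No KD library came down to the NC range, and the spread lay almost wholly in the controls. The log2 fold change was 0.81 (SE 0.261, 95% interval 0.17 to 1.44, adjusted p = 0.276 by edgeR), 0.59 without NC-1 and 0.60 without KD-2 and NC-1. Per Muc5b count Aqp5 was lower in KD, at 0.123 to 0.158 against 0.159 to 0.194 in NC. The neighbouring aquaporin genes were close to silent: Aqp2 stood at 1.37 ± 0.634 CPM in KD and 1.12 ± 0.293 CPM in NC, and Aqp6 was too low to test.

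Ltf, lactoferrin (ENSMUSG00000032496, chromosome 9, 111019271 to 111042767), took the largest share of counts of any member. It held 1.57%, 2.52% and 1.29% of all counts with knockdown and 0.141%, 0.794% and 0.772% in controls. In CPM that is 16159.9, 30316.9 and 12309.5 in KD and 1409.7, 7147 and 7377 in NC, with no overlap, KD-2 highest and NC-1 lowest. The log2 fold change was 1.88 (SE 0.798, 95% interval -0.05 to 3.82, adjusted p = 0.280 by edgeR) and 0.99 without KD-2 and NC-1.

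Neutrophils also carry lactoferrin, so their markers are given beside it. All 12 neutrophil genes had fitted values above 0 (median log2 fold change 1.82), and 0 of them reached an unadjusted p under 0.05. Single libraries moved this median, to 1.202 without KD-2, 1.248 without NC-1, 5.04 without NC-3 and 0.65 with KD-2 and NC-1 both left out. Their summed level was 1675 to 4886 CPM in KD and 81.5 to 2322 CPM in NC. The alarmin gene S100a9 had 11457, 26467 and 13282 counts in KD and 135, 1310 and 16021 counts in NC, so its groups overlapped. Both the summed neutrophil level and Ltf were highest in KD-2 and lowest in NC-1. Between NC-2 and NC-3, where the summed neutrophil level was 287 and 2322 CPM, Ltf was 7147 and 7377 CPM. The part of neutrophils in the Ltf values was not tested. Counts of Ltf per S100a9 count ranged from 8.21 in NC-3 to 169 in NC-1.

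Dmbt1, a scavenger-receptor glycoprotein of mucosal secretions that binds bacteria (chromosome 7, 131032053 to 131121630), had no stable direction. It had 687, 1888 and 696 counts with knockdown and 6030, 732 and 899 counts in controls. NC-1 lay far above everything else and KD-2 was second, while the remaining 4 libraries were close together. Its log2 fold change was -1.04 (SE 1.02, 95% interval -3.52 to 1.43, adjusted p = 0.539 by edgeR) over all libraries. It was 0.76 without NC-1, -1.94 without KD-2 and -0.14 without both. DESeq2 gave no adjusted p for it. Fgfr2 overlaps the locus on the opposite strand, outside the exons.

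Sox9 (ENSMUSG00000000567, chromosome 11, 112782224 to 112787760) was level across all libraries, at 44.6, 41.1 and 41.4 CPM in KD and 45.2, 40.9 and 36.3 CPM in NC. Its groups overlapped fully. The log2 fold change of 0.05 (SE 0.132, 95% interval -0.27 to 0.38, adjusted p = 0.809 by edgeR) bounds a change more closely than for any other member, and it was 0.18 without KD-2 and NC-1. Of 8 tested cartilage markers, 5 were below 0, with a median of -0.43, which was -0.10 without KD-2, -0.15 without NC-1 and 0.05 without both. Aggrecan (Acan) had 59, 19 and 55 counts in KD and 47, 37 and 38 in NC. Aqp5 had 10.05 to 10.8 counts per Sox9 count in KD and 3.75 to 8.69 in NC.

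**Figure D4:**
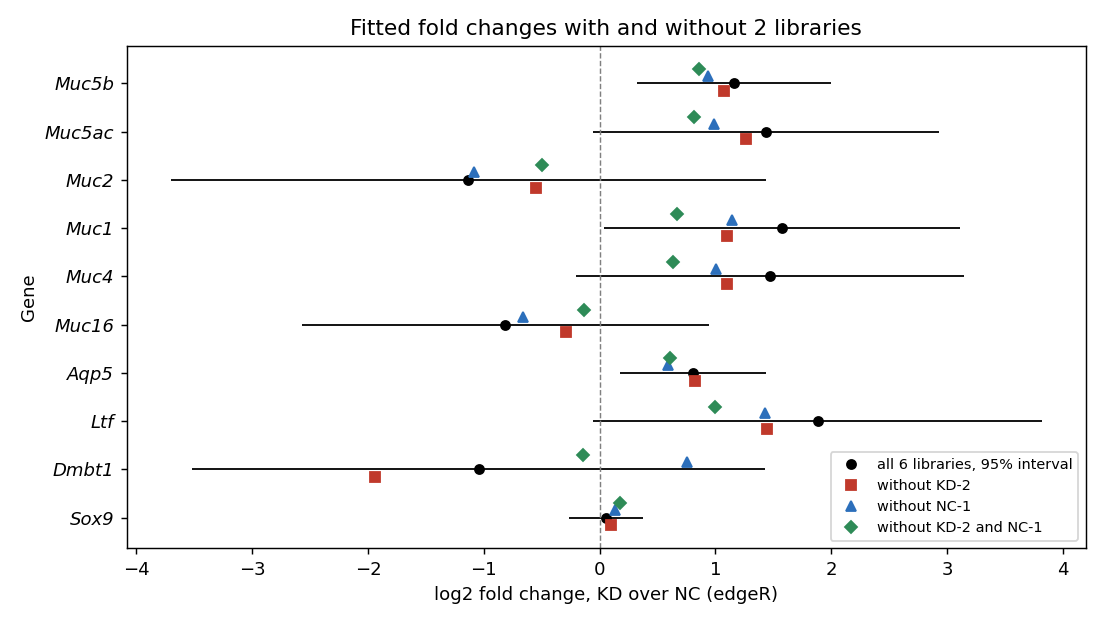
Fitted log2 fold change of KD over NC for each member with all 6 libraries (black, with its 95% interval), without KD-2, without NC-1 and without both. Without both, Muc5b goes from 1.16 to 0.86 and Aqp5 from 0.81 to 0.60. Muc2 and Muc16 come closer to 0 without KD-2, and Dmbt1 changes sign without NC-1.

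Per kilobase of annotated exon, Ltf was the highest member in every library, with 5679.8 ± 2749 CPM per kb in KD and 1539.5 ± 980.0 CPM per kb in NC (SD, n = 3 each). Muc5b (211 ± 32.0 and 94.5 ± 26.9 CPM per kb), Muc1 (204 ± 103 and 68.4 ± 40.9) and Aqp5 (168 ± 5.49 and 96.2 ± 28.5) came next. In NC these 3 overlapped, whereas in KD each library had more Muc5b than Aqp5, with Muc1 overlapping both. Muc4 (43.5 ± 18.8 and 15.7 ± 10.5 CPM per kb), Muc2 (26.8 ± 23.2 and 58.9 ± 3.38) and Muc5ac (26.6 ± 7.04 and 9.82 ± 6.58) followed. In KD these 3 levels overlapped, whereas in NC all libraries had more Muc2 than Muc4 or Muc5ac. Dmbt1 (10.5 ± 8.62 and 21.7 ± 26.8 CPM per kb), Sox9 (10.3 ± 0.457 and 9.87 ± 1.07) and Muc16 (3.07 ± 2.32 and 5.40 ± 1.07) had the lowest means in KD. In NC that order did not hold, since the Dmbt1 mean, raised by NC-1, was above those of Muc4 and Muc5ac, and Sox9 and Muc5ac were within their spread. Muc16 lay below Sox9 in each library, and Dmbt1 overlapped Sox9 in both groups. All 10 members together held 2.07%, 3.03% and 1.77% of counts with knockdown and 0.370%, 1.15% and 1.10% in controls.

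Likeness of profile was measured as the mean absolute difference of log2 CPM over the 6 libraries after each gene's mean was taken off. Among members, Muc4 and Ltf were the closest pair at 0.174, followed by Aqp5 and Muc5b at 0.175, Muc1 and Muc4 at 0.185, and Muc1 and Ltf at 0.187. Muc2 was 0.626 from Muc16 and at least 1.52 from each other member. Over all tested genes, the nearest to Muc1 was Pigr, the receptor that carries IgA across glands (0.109), and the nearest to Muc4 was Msln, mesothelin (0.0863). Muc5b was nearest to the autophagy gene Vmp1 (0.0611), Muc5ac to the NF-kappa-B inhibitor gene Nfkbie (0.0914), and Ltf to the inflammatory caspase gene Casp1 (0.124). Muc16 was nearest to the homeobox gene Emx2 (0.0534) and Muc2 to the receptor gene Olfr206 (0.0722), ahead of Insm1, a factor of neuronal progenitors (0.0928). Olfr206 was near the limit of counting, at 1.34, 0 and 2.15 CPM in KD and 2.84, 2.55 and 2.75 CPM in NC. Aqp5 was nearest to Foxm1 (0.0313) and Sox9 to Crebbp (0.0190). Dmbt1 had no close match, its nearest being Prom2 at 0.275. Among 18444 genes over 6 libraries, close matches arise easily, and shared function was not tested.

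Other mucin genes were read as a list. Of 12 listed, 9 were in the table (Muc21 under the name Gm9573) and 7 were tested. Fitted values were above 0 for 6 and below for 1, with a median log2 fold change of 1.19 against 0.01 over all tested genes, and 0 passed edgeR. Without KD-2 and NC-1 the median was 0.66. Muc13, a membrane mucin, had 1929, 1854 and 1385 counts in KD and 236, 1305 and 857 in NC. Muc20, whose exons overlap those of Muc4, stood at 1051, 1674 and 1357 counts in KD and 275, 1017 and 835 in NC. Gm9573 was at 18.98, 42.7 and 9.92 CPM against 1.60, 7.20 and 1.12 CPM, and DESeq2 called it higher (log2 fold change 2.82, adjusted p = 0.0407). Muc15 alone lay below, with 50, 0 and 53 counts in KD and 94, 160 and 118 in NC, lowest in KD-2 like Muc2 and Muc16. Groups did not overlap for these 4 genes. Among the 6 genes above 0 was also Emcn, endomucin, at 20.1, 21.9 and 13.2 CPM in KD and 7.46, 8.99 and 12.4 CPM in NC. The cells of origin of Emcn were not tested.

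Of 20 tested genes for mucin assembly and the goblet programme, 16 were above 0 and 4 below (median log2 fold change 0.72), and neither edgeR nor DESeq2 called any. The median was 0.55 without KD-2 and NC-1. An unadjusted p under 0.05 was reached by 8 higher and 2 lower genes, where 8.7% and 9.25% of all tested genes did so. Foxa3, a goblet-cell factor, stood at 3.04, 2.53 and 1.65 CPM in KD and 0.740, 0.715 and 1.07 CPM in NC (log2 fold change 1.51, SE 0.382). Galnt12, which starts O-glycan chains on mucins, stood at 24.2, 28.7 and 21.7 against 8.20, 13.1 and 16.3 CPM. Spdef, the master factor of goblet cells, overlapped between groups (691, 538 and 487 against 343, 404 and 487 counts), as did the mucin-folding enzyme gene Agr2. Fcgbp, a mucus protein, had 4669, 353 and 2117 counts in KD and 567, 1010 and 1749 in NC, and so overlapped too. Gcnt3, which branches mucin O-glycans, had 20, 0 and 22 counts against 82, 93 and 52, a profile like that of Muc2.

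Of 20 tested serous defence products, 16 had fitted values above 0 and 4 below. Their median log2 fold change was 1.09, or 0.35 without KD-2 and NC-1. Unadjusted p was under 0.05 for 1 higher and 1 lower gene, against 8.7% and 9.25% of all tested genes. In 8 the KD values lay above all NC values and in 1 below, against 15.3% and 18.6% of all tested genes. The list includes Lyz2, at 2532, 5425 and 1130 CPM in KD and 374, 591 and 2354 CPM in NC. It also includes Lcn2, at 3803, 9545 and 3406 CPM in KD and 60.3, 1758 and 3356 CPM in NC. Bpifa2, a secreted protein of salivary and nasal glands, had 162, 255 and 281 counts in KD and 25, 21 and 10 in NC, and it alone of the list was called by DESeq2; edgeR called none. Pigr stood at 2413, 5537 and 2467 CPM in KD and 453, 1431 and 1777 CPM in NC. The lectin gene Reg3g had 80030, 102045 and 50267 counts in KD and 12240, 43993 and 47366 in NC. Plasma cell genes, which share the glands with these products, had fitted values above 0 in 8 of 8 (median log2 fold change 0.89). That median was 0.54 without KD-2, 0.45 without NC-1, 1.52 without NC-3 and 0.07 with KD-2 and NC-1 both left out. Their summed level overlapped between groups at 15104 to 27548 CPM in KD and 4291 to 23744 CPM in NC. The part of plasma cells, neutrophils or other immune cells in the serous values was not tested.

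Fluid and ion transport genes of glands did not share a direction, with 9 of 18 above 0, 9 below and a median log2 fold change of -0.02, or 0.20 without KD-2 and NC-1. Kcnn4, a calcium-activated potassium channel of secretory cells, stood at 22.4, 25.0 and 24.6 CPM in KD and 8.26, 10.9 and 15.5 CPM in NC, and Fxyd3, a regulator of the sodium pump, at 15.6, 25.1 and 16.9 against 8.82, 8.74 and 8.91 CPM. DESeq2 called both (adjusted p = 0.0407 and 0.0134) and edgeR neither. Slc4a4, a sodium bicarbonate cotransporter, was lower in each KD library, at 65.1, 42.4 and 61.0 against 121, 102 and 73.8 CPM. Of 10 respiratory ciliated markers 7 were above 0 and 3 below (median 0.39, or 0.21 without KD-2 and NC-1). Their summed level was 1058 to 1278 CPM in KD and 797 to 1041 CPM in NC. Of 7 tested gland myoepithelial markers 4 were above 0 and 3 below (median 0.09, or 0.04 without KD-2 and NC-1). Their sum was 639 to 725 against 408 to 567 CPM. The amount of respiratory or gland tissue per library was not tested. Of 20 gland and duct regulators 13 were above 0 and 7 below (median 0.56, or 0.30 without KD-2 and NC-1). Krt8 and Krt18 of this list were also counted among the sustentacular markers. Ehf, an epithelial ETS factor, stood at 209.8, 209.9 and 139 against 97.3, 104 and 99.3 CPM, while its relative Elf5 stood at 61.8, 50.4 and 71.1 against 142, 87.8 and 92.7 CPM.

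Upstream sequence is shown for Muc1 and Ltf, which were higher in KD, and for Muc2, which was lower. Muc4 and Aqp5 were higher in KD too, and their upstream sequence was searched but is not shown. RefSeq (GRCm38.p6) gave a start site for 6 members, and the 250 bases before it are printed 5′ to 3′ with matches in capitals. By the GENCODE positions above, the Aqp5 window (chr15:99590778-99591027) lies almost wholly inside the gene. The end of the Ltf window likewise runs past the GENCODE start of Ltf. Searched on both strands were CACCTG, the E-box core that Zeb factors bind, GGGCGG, the GC box, and TATAAA, the TATA box; different motifs can share at most 1 end base.
Muc1 (chr3:89228806-89229055, plus strand): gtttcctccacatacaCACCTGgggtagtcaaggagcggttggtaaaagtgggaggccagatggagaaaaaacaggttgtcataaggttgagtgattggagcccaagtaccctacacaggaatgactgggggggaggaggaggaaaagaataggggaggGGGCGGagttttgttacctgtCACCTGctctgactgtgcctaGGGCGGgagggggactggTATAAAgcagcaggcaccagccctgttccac
Ltf (chr9:111019042-111019291, plus strand): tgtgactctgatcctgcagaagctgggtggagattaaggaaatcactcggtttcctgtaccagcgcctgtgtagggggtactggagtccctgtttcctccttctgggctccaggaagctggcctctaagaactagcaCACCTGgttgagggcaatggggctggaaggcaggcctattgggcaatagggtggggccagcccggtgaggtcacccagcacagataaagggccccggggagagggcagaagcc
Muc2 (chr7:141690090-141690339, plus strand): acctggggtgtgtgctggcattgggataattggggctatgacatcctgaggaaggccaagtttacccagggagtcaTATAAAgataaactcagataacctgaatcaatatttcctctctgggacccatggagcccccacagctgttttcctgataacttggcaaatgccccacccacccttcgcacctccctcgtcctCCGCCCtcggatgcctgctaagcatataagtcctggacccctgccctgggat
CACCTG occurred 2 times in Muc1, with first bases 234 and 70 bases before the start, and 1 time in Ltf, at 113 bases. It was not in the windows of Muc2, Muc4, Muc16 or Aqp5, and 17.2% of all 32851 promoter windows of this length held it. GGGCGG occurred 2 times each in Muc1 and Aqp5 and 1 time in Muc2 (32.7% of all windows). TATAAA occurred 1 time each in Muc1, at 31 bases, in Muc4, at 36 bases, and in Muc2, at 174 bases (12.4% of all windows). Aqp5 had the most G and C, 78.4% of its window, against 43.6% in Muc4 and a median of 52.4% over all windows. These matches describe the letters and show no binding.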

How the data were processed

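Libraries were made from poly(A)-selected RNA, per the labels' protocols. The authors deposited 1 table of raw read counts per gene and library. Per the file headers it also holds a mean signal of size-factor-scaled counts, and for each gene a log2 fold change and a p-value. The submitters' processing notes name HTSeq 0.6.0, HISAT2 2.1.0, Bowtie2 2.2.3, TopHat2, DESeq, DESeq2 and the build GRCm38, without roles. Annotation release, strand setting and the treatment of multi-mapping reads were not given in the sources used here. Reads lost in repeats or shared between overlapping genes can therefore shift mucin levels.

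Counts were tested with edgeR 4.0.16 (TMM, default low-count filter, quasi-likelihood test, no covariate, two-sided) in R 4.3.3. Benjamini-Hochberg adjustment ran over 18444 genes, with a threshold of 0.05. Standard errors were derived from each F statistic. DESeq2 1.42.0, limma-voom 3.58.1, other normalizations and filters, a replicate block, a neuron-level covariate and left-out libraries were alternatives. Positions and exon lengths come from GENCODE vM21 and printed sequences from RefSeq, both on GRCm38. On simulated counts for 18444 genes of this comparison, with 200 genes changed 4-fold and a spread smaller than that of these libraries, 200 were recovered with 14 false calls. Members and lists were chosen with earlier results of these data known. The genes named are the 10 members, genes of the lists, the members' neighbours on the chromosome and in pattern, and Omp, Cyp2g1, Mir200a and Mir200b. From each list the 3 genes of smallest p were taken, and not all are named. Other genes named from the lists were chosen after their values were seen.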

Additional observations from a re-analysis of the deposited data

How the results depend on the processing

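Each member's fold change was refitted under 17 alternatives. The higher KD values of Muc5b, Muc5ac, Muc1, Muc4, Aqp5 and Ltf kept their sign in all 17. With DESeq2, 347 genes and 1 member passed, the member being Muc5b (log2 fold change 1.14). Without both KD-2 and NC-1, edgeR called 3 genes and 0 members. With mature neuron marker level as a covariate, Muc2 turned to 0.40 and Muc16 to 0.31. The same covariate moved Muc1 to 0.80, Muc4 to 0.81, Ltf to 1.14 and Dmbt1 to -2.24, and 0 members passed. For 11 of the 12 neuron markers the KD values all lay below the NC values, and their summed level was lowest in KD-2. The part of the covariate and that of the group can therefore not be told apart. Sox9 turned to -0.091 on total counts alone, a scaling that moved the median of all tested genes from 0.01 to -0.14, and to -0.019 without NC-3. Dmbt1 turned to 0.76 without NC-1. With 1 library left out at a time, the values ran from 0.94 to 1.27 for Muc5b, 0.99 to 1.95 for Muc5ac and -1.78 to -0.55 for Muc2. They ran from 1.10 to 1.89 for Muc1, 1.01 to 1.84 for Muc4, -1.37 to -0.29 for Muc16 and 0.59 to 1.01 for Aqp5. The ranges were 1.43 to 2.199 for Ltf, -1.94 to 0.76 for Dmbt1 and -0.019 to 0.14 for Sox9. With edgeR, 0 genes passed in each of these 6 fits. Libraries of the same number were not stated to be paired, and their deviations correlated at 0.297, 0.0953 and -0.255. A replicate block called 0 genes and gave 1.19 for Muc5b, -1.95 for Muc2 and 2.11 for Ltf. Depth did not limit the members, whose lowest value was 104 counts.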

Other observations

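Prolactin-induced protein (Pip), a secreted protein of salivary, lacrimal and other exocrine glands, had 2960 counts in NC-1 and 22, 33 and 0 counts with knockdown. The remaining controls had 42 counts in NC-2 and 17 in NC-3. NC-1 was thus the library with the highest level both of Pip and of Dmbt1, and with the lowest of Muc5b, Muc5ac, Muc1, Muc4, Aqp5 and Ltf. Dnase1, a secreted nuclease, had 205 counts there against 66 and 58 in both other controls and 38, 19 and 41 in the KD libraries. Slpi, a protease inhibitor of airway secretions, had 180 counts in NC-1 and between 9368 and 25304 in the remaining libraries. Pip, Dnase1 and Slpi belong to the list of serous products and were singled out after their values were seen.

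Lactoperoxidase (Lpo), the peroxidase of airway gland secretions, was low throughout. It had 23, 20 and 16 counts with knockdown and 1, 14 and 13 in controls. Scgb1a1, the marker of club cells, had 1 count in KD-1 and 0 in each of the remaining libraries, which allows up to 3 counts in each. Muc19, a gel-forming mucin of salivary glands, had 5, 0 and 1 counts with knockdown and 11, 3 and 2 in controls. Clca1, a secreted product of goblet cells, had 9, 2 and 2 counts against 2, 3 and 3.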
